A study of Mus musculus with 4 samples.

Results

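The 48 genes described here carry out S phase, the part of the cell cycle in which the genome is copied. They were fixed as a list of symbols, and each was read from the row of that symbol among the 54348 gene rows of the expression table. All 48 symbols were found. The RNA came from mouse forebrains taken at postnatal day 4, from which live tdTomato-positive cells had been isolated by flow cytometry. In the fusion group (2 libraries) the genotype was PdgfraCreER;MN1:BEND2;AI14, and in the control group (2 libraries) it was PdgfraCreER;AI14. All pups carried PdgfraCreER, a tamoxifen-activated Cre recombinase driven from Pdgfra, and AI14, a reporter that turns on the red protein tdTomato after recombination, and all had intraperitoneal tamoxifen on postnatal days 0 and 1. MN1:BEND2 is the fusion gene found in astroblastoma, a brain tumour. The labels do not give how the fusion gene is driven or the strain. They also do not say whether a group's libraries are from different animals. A p-value here rests on how far a group's 2 libraries differ, which could be technical. The test also draws on the spread seen across all tested genes (prior degrees of freedom 3.25, against 2 from the gene itself). The labels call the cells the Pdgfra lineage, and Pdgfra is a marker of oligodendrocyte precursor cells that some fibroblasts also make.

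Replication starts at origins, where a loading machinery places the ring-shaped MCM helicase on DNA before S phase. Kinases then turn the helicase on with Cdc45 and the GINS complex, polymerase alpha and primase lay down primers, and polymerases delta and epsilon extend them on a sliding clamp, while replication protein A covers the exposed single strands. Many of these genes are targets of E2F transcription factors, which drive their transcription as cells pass from G1 into S phase, and in the early postnatal forebrain oligodendrocyte precursors are among the cells that still divide.

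Values are TPM, the share of transcripts after division by transcript length, so the read depth is unknown and no counting error can be given. The libraries of the groups stood apart before any replication gene was read. Mitochondrially encoded genes held 48.7% and 26.2% of TPM in the fusion libraries, against 10.1% and 7.30% in the control libraries, and 9050 and 10017 genes reached 1 TPM in the fusion libraries, against 12772 and 13219 in the control libraries. Across the tested genes the correlation of log2 values was 0.894 between the fusion libraries and 0.973 between the control libraries. Bend2, named by the construct, had 3.82 and 8.72 TPM in the fusion libraries and was listed at 0 in both control libraries. Its row carries the symbol in place of an Ensembl identifier and has no position in the annotation used here. Which sequence the Bend2 row stands for is therefore not known. The mouse gene Mn1, the other gene the construct names, had 2.75 and 3.04 TPM in the fusion libraries, against 11.6 and 17.8 TPM in the control libraries. It passed as lower on the deposited scale (change -1.98, adjusted p = 0.0158, limma) but not after median ratio scaling, at -0.55. The Y-linked gene Eif2s3y was listed at 0 in both fusion libraries and had 121 and 122 TPM in the control libraries, so sex and genotype cannot be told apart here. The 8 oligodendrocyte precursor markers summed to 326 and 436 TPM in the fusion libraries, against 1080.0 and 1398 TPM in the control libraries, and 6 of the 8 were lower by limma, where 51.3% of all tested genes were. After the median ratio scaling described below none of the 8 was lower by limma (3 at an unadjusted p under 0.05), and their median change was 0.00. On that scale both fusion libraries were above both control libraries in 4 of the 8 and below them in the other 4. Of all tested genes 29.7% were above and 40.6% below in this way. The 14 microglia and macrophage markers summed to 498 and 725 TPM in the fusion libraries, against 137 and 61.0 TPM in the control libraries, with 4 of 11 tested higher and P2ry12 listed at 0 in both fusion libraries. The 8 fibroblast markers summed to 485 and 966 TPM in the fusion libraries, against 47.8 and 126 TPM in the control libraries, and 3 of 7 tested were higher. Most of the fibroblast sum was Mgp, with 364 and 717 TPM in the fusion libraries, against 0 and 1.34 TPM in the control libraries. Without Mgp the other 7 summed to 121 and 248 TPM in the fusion libraries, against 47.8 and 125 TPM in the control libraries, so the groups overlapped, and Ogn was listed at 0 in both fusion libraries. Sums for neuron markers were 62.6 and 62.4 TPM in the fusion libraries against 264 and 262 TPM in the control libraries, for astrocyte markers 24.4 and 53.4 TPM against 128 and 168 TPM, and for endothelial markers 1.83 and 5.88 TPM against 1.24 and 1.40 TPM. After the scaling 2 of 8 tested neuron markers were lower and 1 higher by limma, with a median change of -0.28. Of 6 tested astrocyte markers none was lower and 2 were higher, with a median change of -0.10. On that scale 19.9% of all tested genes were lower and 13.6% higher. The part of cell mixture, RNA quality and sex in the results that follow was not tested. Fewer cells of a type and less RNA per cell cannot be told apart in such bulk libraries.

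Most replication genes were lower in the fusion libraries, and 2 were higher. Every gene that reached 1 TPM in 2 or more libraries was compared with limma on log2(TPM + 1), with Benjamini-Hochberg adjustment over all tested genes and a threshold of 0.05, so each change is on that scale, where it understates the change of low genes. Of the 48 genes 46 were tested, of which 34 were lower, 2 were higher and 10 did not pass. Lower calls made up 51.3% of all 12871 tested genes and higher calls 4.95%, so the whole table leant the same way. The median change of the 46 was -2.18, against -1.41 for all tested genes, and 39 of the 46 lay below that overall median. In 42 of the 46 both fusion libraries were below both control libraries, which held for 71.1% of all tested genes, and in 2 both were above, which held for 10.2%. The groups overlapped in 2 genes, Pola2 and Pole. Of the tested genes, 4 (Orc1, Cdc6, Fen1 and Ccne1) reached 1 TPM in the control libraries only, as did 18.6% of all tested genes.

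The count depended on how the libraries were brought to a common scale. After median ratio scaling, which sets the median gene's ratio between libraries near 1, 18 of the 46 were lower, 2 higher and 26 not called, where 19.9% and 13.6% of all tested genes were lower and higher. The median change was then -1.01 for the replication genes and -0.22 for all tested genes, and lower calls fell to 59.5% of all calls, against 91.2% on the deposited scale. Both fusion libraries were below both control libraries in 27 of the 46 after scaling (40.6% of all tested genes) and above in 5 (29.7%). After a correction for GC content and transcript length, 16 were lower and 2 higher, where 16.5% and 13.7% of all tested genes were. The 16 that were lower on all 3 scales, as 13.4% of all tested genes were, were Mcm6, Cdc45, Gins2, Gins4, Prim1, Prim2, Rfc2, Rpa1, Rpa2, Fen1, Lig1, Rrm1, Rrm2, Tk1, Chaf1b and Asf1b. The 2 higher on all 3 scales, as 4.72% of all tested genes were, were Pola1 and Rpa3. Leaving out control replicate 1 or control replicate 2 left only Orc1 and Ccne1 lower and no member higher by limma (26 and 23 lower, and 1 and 1 higher, at an unadjusted p under 0.05), where 8.59% and 7.96% of all tested genes were still lower and 0.117% and 0.109% higher.

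**Figure D1:**
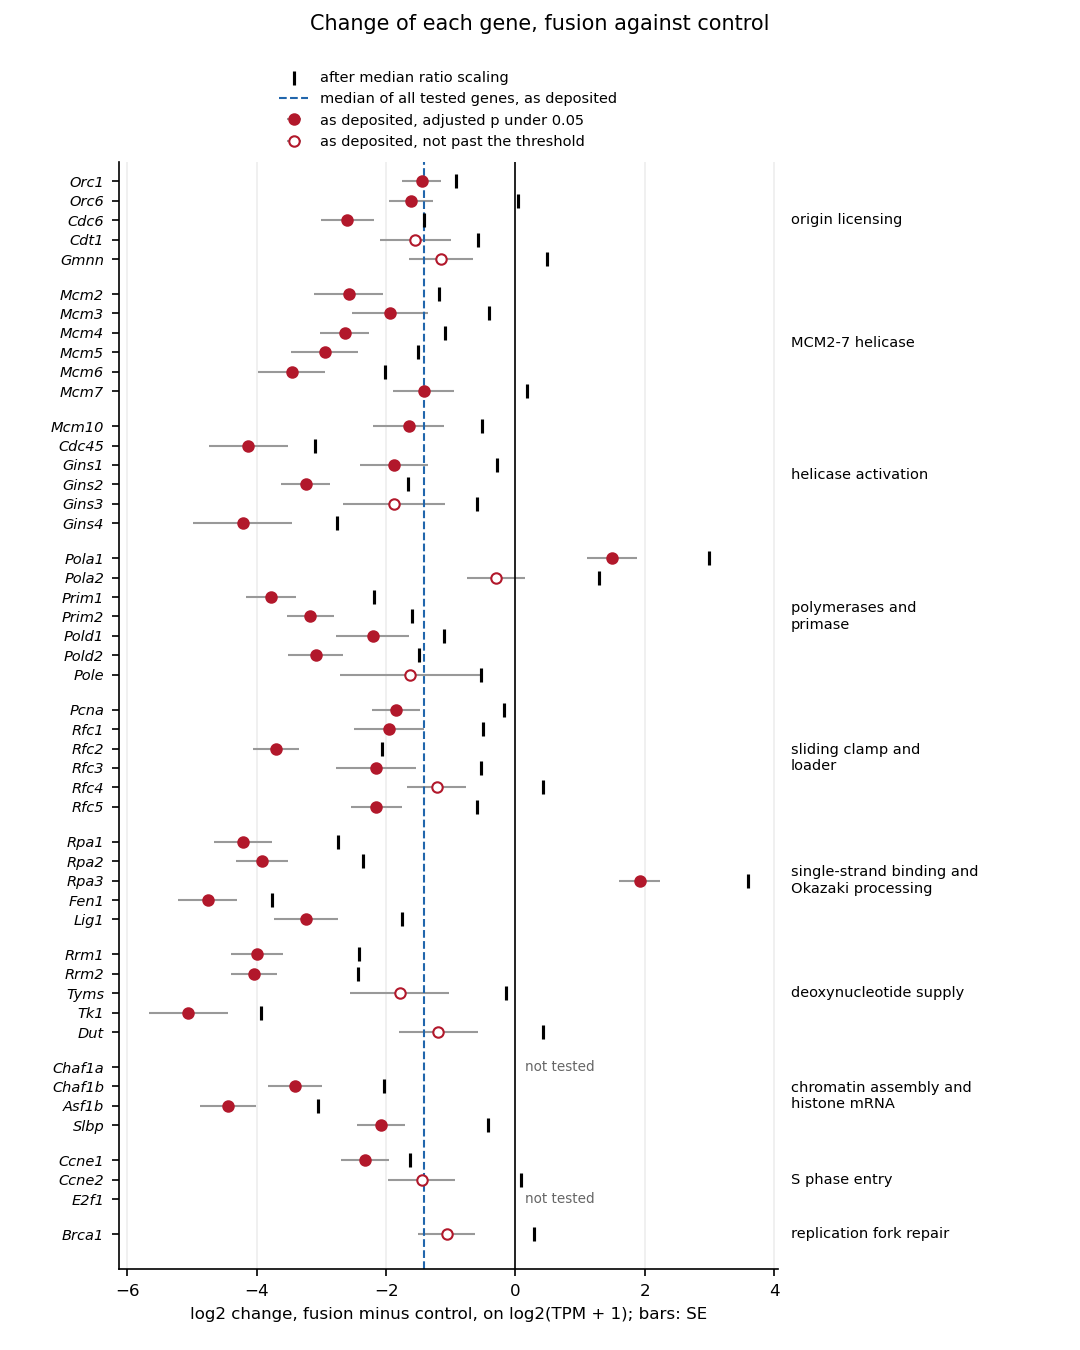
Log2 change of each gene (x axis, fusion minus control, log2(TPM + 1)), by role from top to bottom. Circles with SE bars show the deposited scale (filled where the adjusted p was under 0.05), black ticks the change after median ratio scaling, and the dashed line the median of all tested genes at -1.41. Of the 46 tested genes 34 are filled and lower and 2 are filled and higher, Pola1 and Rpa3; after scaling 8 genes that are below 0 here, among them Mcm7 and Pola2, lie above it.

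The sequence just before and after the transcription start was read for the E2F-type letters TTTCCCGC, TTTGGCGC, TTTCGCGC and TTTGCCGC on both strands and with overlapping matches counted, as these are the letters E2F factors are known to bind. RefSeq windows (GRCm38.p6) of 250 bases before to 50 bases after each start were found for 39 of the 48 genes (44 windows). At least 1 match was present in 12 of the 39 genes (30.8%), against 2.60% of all 27025 genes in the table, 3.29% of its protein-coding genes and 4.84% of the tested genes in it. There were 2 or more matches in 5 of the 39 (12.8%), against 0.230% of the tested genes: Mcm3, Mcm5, Mcm6, Mcm7 and Rfc3. A match is a description of letters and not a measured binding site, and no match says only that these letters are not in the window. The sequences below run 5′ to 3′ on the gene's strand, with matches in capitals. Mcm6 (chr1:128359656-128359955, minus strand), Rfc3 (chr5:151651159-151651458, minus strand), Cdc6 (chr11:98907901-98908200, plus strand) and Gins3 (chr8:95633309-95633608, plus strand) were taken for the most matches, 1 for each role, with ties taken by symbol. Pola1 (chrX:93632106-93632405, minus strand) and Rpa3 (chr6:8259092-8259391, minus strand) were added after their values were seen, as the genes that were higher.
Mcm6: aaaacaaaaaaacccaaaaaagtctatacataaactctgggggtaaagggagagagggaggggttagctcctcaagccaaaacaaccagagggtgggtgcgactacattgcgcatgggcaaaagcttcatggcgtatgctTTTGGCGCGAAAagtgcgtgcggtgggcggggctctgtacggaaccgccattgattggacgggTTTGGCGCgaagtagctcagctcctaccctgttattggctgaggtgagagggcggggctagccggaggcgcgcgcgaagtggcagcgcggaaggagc
Rfc3: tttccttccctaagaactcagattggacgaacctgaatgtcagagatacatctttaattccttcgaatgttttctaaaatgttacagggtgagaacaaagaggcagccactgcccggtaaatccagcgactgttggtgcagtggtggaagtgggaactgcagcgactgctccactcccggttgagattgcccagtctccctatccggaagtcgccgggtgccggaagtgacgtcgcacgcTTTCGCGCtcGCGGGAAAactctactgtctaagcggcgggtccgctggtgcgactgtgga
Cdc6: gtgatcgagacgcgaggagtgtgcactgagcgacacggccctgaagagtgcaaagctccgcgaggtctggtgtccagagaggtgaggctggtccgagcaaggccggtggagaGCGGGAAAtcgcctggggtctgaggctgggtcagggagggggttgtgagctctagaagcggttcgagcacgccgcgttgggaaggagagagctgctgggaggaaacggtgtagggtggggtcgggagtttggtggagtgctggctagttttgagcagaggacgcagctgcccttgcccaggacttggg
Gins3: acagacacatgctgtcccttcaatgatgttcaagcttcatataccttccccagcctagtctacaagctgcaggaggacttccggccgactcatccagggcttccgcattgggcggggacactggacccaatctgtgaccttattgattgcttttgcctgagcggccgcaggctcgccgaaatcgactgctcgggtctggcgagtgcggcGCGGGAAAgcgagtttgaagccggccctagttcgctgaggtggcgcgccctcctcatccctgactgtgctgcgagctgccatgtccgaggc
Pola1: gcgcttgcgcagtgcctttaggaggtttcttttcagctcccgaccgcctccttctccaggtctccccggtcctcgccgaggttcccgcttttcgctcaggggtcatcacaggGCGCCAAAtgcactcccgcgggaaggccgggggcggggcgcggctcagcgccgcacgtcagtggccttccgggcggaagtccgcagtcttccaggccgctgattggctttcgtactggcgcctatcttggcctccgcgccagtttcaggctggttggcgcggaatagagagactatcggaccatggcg
Rpa3: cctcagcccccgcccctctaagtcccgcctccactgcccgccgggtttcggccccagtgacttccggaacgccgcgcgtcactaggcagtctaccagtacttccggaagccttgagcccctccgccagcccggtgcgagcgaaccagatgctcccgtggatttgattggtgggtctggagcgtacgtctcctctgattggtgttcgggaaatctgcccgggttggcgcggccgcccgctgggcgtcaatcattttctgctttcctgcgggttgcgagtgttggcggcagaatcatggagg
Mcm6 held 3 matches, of which a pair overlap and share bases, Rfc3 held 2, and Cdc6, Gins3 and Pola1 held 1 each. Rpa3 held none. Among the genes with 1 match shown, Pola1 was higher, Cdc6 was lower and Gins3 did not pass the test.

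**Figure D2:**
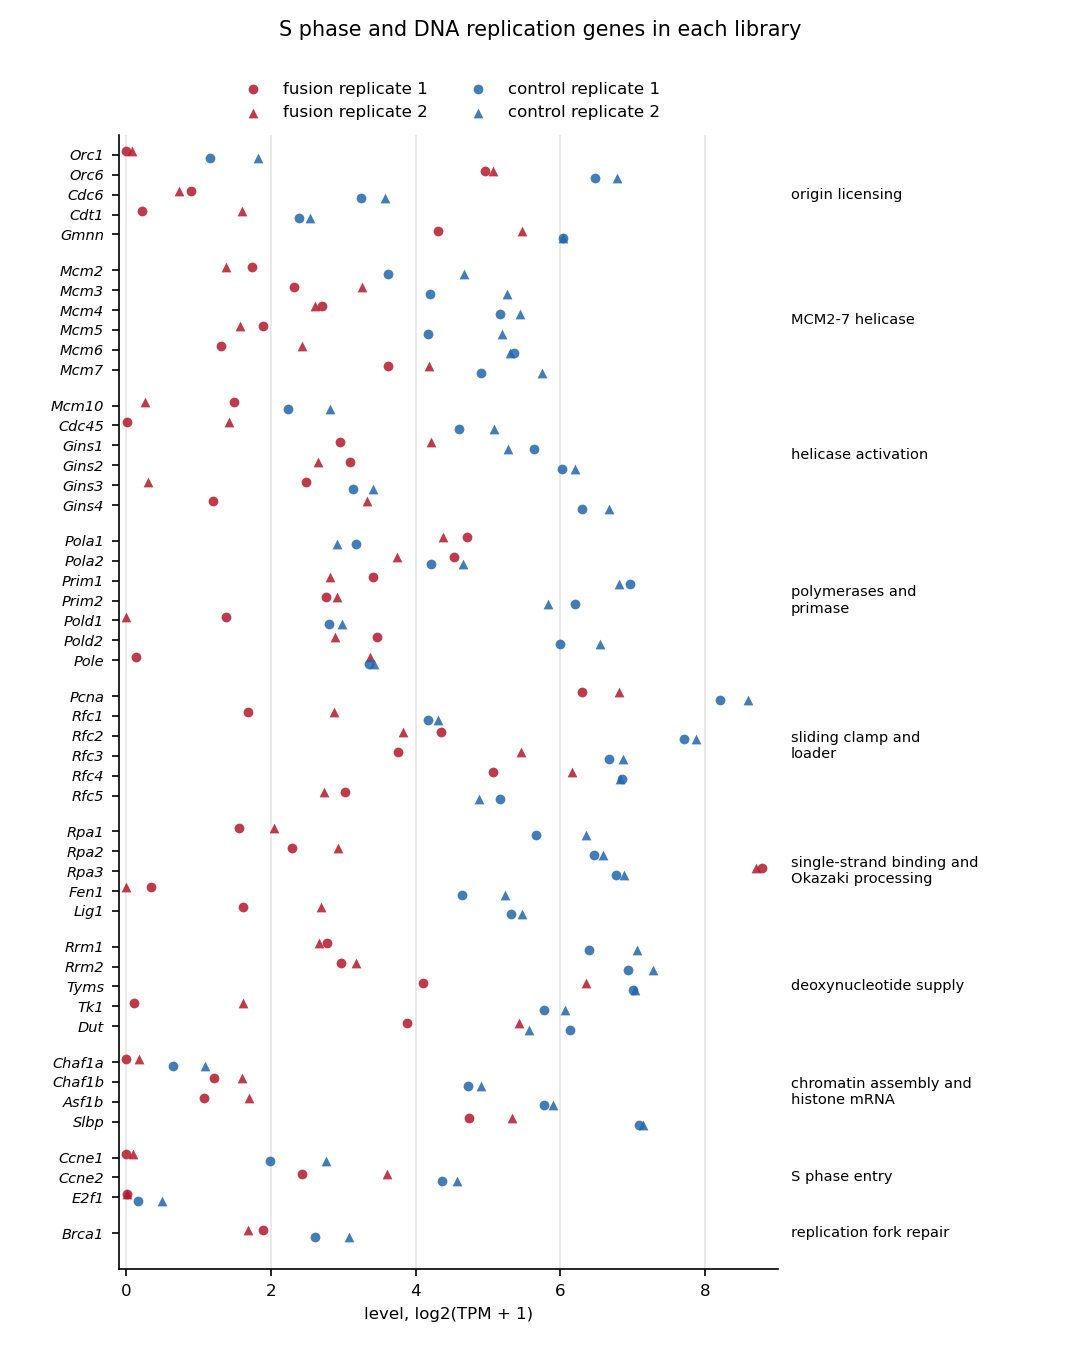
Level of each gene in each library (x axis, log2(TPM + 1)), by role from top to bottom. Red symbols are the fusion libraries and blue the control libraries, circles replicate 1 and triangles replicate 2. On this deposited scale both red symbols lie left of both blue ones in 42 of the 46 tested genes (27 after median ratio scaling), and right of them in Pola1 and Rpa3.

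Among the 5 origin licensing genes 3 were lower and 2 did not pass, with a median change of -1.55. Of all tested genes 51.3% were lower, with a median change of -1.41, so these genes lay near the whole table. The same share and median stand beside the counts of each role group below. Cdc6, which helps load the MCM helicase at origins, had 0.859 and 0.654 TPM in the fusion libraries, against 8.48 and 10.9 TPM in the control libraries. It was lower by a log2 change of -2.60 ± 0.41 (SE, adjusted p = 0.00638, limma). Orc6, a subunit of the origin recognition complex, had 30.1 and 32.6 TPM in the fusion libraries, against 87.9 and 109 TPM in the control libraries. The groups did not overlap, and the change was -1.61 ± 0.34 (SE, adjusted p = 0.0132, limma), but after median ratio scaling it was 0.04 with overlapping groups. Orc1, the subunit with the nucleotide-binding motor of that complex, had 0 and 0.0609 TPM in the fusion libraries, against 1.24 and 2.55 TPM in the control libraries (change -1.45 ± 0.30, adjusted p = 0.0127, limma), and its change was 0.24 after the GC content and length correction. Cdt1, the partner of Cdc6 in loading, had 0.167 and 2.05 TPM in the fusion libraries, against 4.24 and 4.83 TPM in the control libraries. Gmnn, whose protein geminin holds Cdt1 back after origins have fired, had 18.8 and 43.5 TPM in the fusion libraries, against 64.6 and 64.9 TPM in the control libraries. Neither passed (changes -1.55 ± 0.55, adjusted p = 0.0610, and -1.15 ± 0.49, adjusted p = 0.0957, limma) and the fusion libraries differed from each other more than the control libraries did. Both passed as lower without fusion replicate 2, but wherever a fusion library is left out the spread comes from the 2 control libraries, and the lone fusion library is assumed to vary like them. After scaling Gmnn changed by 0.49, with both fusion libraries above both control libraries. The ratio of Gmnn to Cdt1, which the scaling of a library does not touch, was 113 and 21.2 in the fusion libraries, against 15.3 and 13.4 in the control libraries. After median ratio scaling only Orc1 of the 5 was still lower, and after the GC content and length correction none was by limma (1 at an unadjusted p under 0.05).

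All 6 genes of the MCM2-7 helicase, the ring that unwinds DNA at the fork and holds an equal number of each subunit, were lower, with a median change of -2.61. Mcm6, whose promoter window above held 3 matches, had 1.48 and 4.42 TPM in the fusion libraries, against 40.0 and 38.4 TPM in the control libraries. The groups were far apart, and the change was -3.46 ± 0.52 (SE, adjusted p = 0.00567, limma). Mcm5 had 2.73 and 1.99 TPM in the fusion libraries, against 17.1 and 35.6 TPM in the control libraries (change -2.95 ± 0.52, adjusted p = 0.00802, limma). Mcm4 had 5.52 and 5.10 TPM in the fusion libraries, against 35.0 and 42.3 TPM in the control libraries (change -2.64 ± 0.38, adjusted p = 0.00516, limma). For Mcm4 the libraries of each group lay close together, while for Mcm5 the control libraries lay far apart. Mcm2 had 2.34 and 1.60 TPM in the fusion libraries, against 11.2 and 24.4 TPM in the control libraries (change -2.58 ± 0.53, adjusted p = 0.0127, limma). Mcm3 had 3.98 and 8.55 TPM in the fusion libraries, against 17.4 and 37.3 TPM in the control libraries (change -1.94 ± 0.58, adjusted p = 0.0359, limma). Mcm7 had 11.3 and 17.2 TPM in the fusion libraries, against 29.0 and 52.5 TPM in the control libraries (change -1.42 ± 0.47, adjusted p = 0.0481, limma). Control replicate 2 was above control replicate 1 in Mcm2, Mcm3, Mcm4, Mcm5 and Mcm7, and Mcm3 and Mcm7 did not pass without fusion replicate 1. Mcm7 shares exonic bases on the opposite strand with Cops6 and Ap4m1, and the kit is not stated to keep strand, so its reads and theirs may not have been told apart. Cops6 had 11.5 and 12.4 TPM in the fusion libraries, against 403 and 423 TPM in the control libraries, and Ap4m1 had 0.347 and 0.0513 TPM in the fusion libraries, against 1.18 and 7.18 TPM in the control libraries. Both were below the control libraries in both fusion libraries, as Mcm7 was. After either median ratio scaling or the GC content and length correction only Mcm6 of the 6 was still lower, and the changes of Mcm7 were 0.18 and 0.52, in the other direction. The highest of the 6 genes over the lowest was 7.66 and 10.8 in the fusion libraries, against 3.56 and 2.15 in the control libraries.

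Of the 6 genes that turn the loaded helicase on, 5 were lower, with a median change of -2.56. Cdc45, which with MCM2-7 and GINS forms the active helicase, had 0.0117 and 1.67 TPM in the fusion libraries, against 23.3 and 33.0 TPM in the control libraries. Its change was -4.13 ± 0.61 (SE, adjusted p = 0.00564, limma). It shares exonic bases with Ufd1 on the opposite strand, which had 8.61 and 31.3 TPM in the fusion libraries, against 176 and 174 TPM in the control libraries. The GINS complex is built from the products of 4 genes. Gins4 had 1.29 and 9.05 TPM in the fusion libraries, against 77.4 and 101 TPM in the control libraries (change -4.22 ± 0.76, adjusted p = 0.00854, limma). Gins2 had 7.54 and 5.27 TPM in the fusion libraries, against 63.7 and 72.6 TPM in the control libraries (change -3.24 ± 0.38, adjusted p = 0.00385, limma). Gins1 had 6.77 and 17.5 TPM in the fusion libraries, against 48.8 and 37.8 TPM in the control libraries (change -1.88 ± 0.53, adjusted p = 0.0318, limma). All 3 kept the groups apart, Gins2 with the closest libraries within a group. Gins3, the lowest of the complex in the control libraries, had 4.61 and 0.234 TPM in the fusion libraries, against 7.77 and 9.67 TPM in the control libraries. It did not pass (change -1.88 ± 0.79, adjusted p = 0.0940, limma). Fusion replicate 1 lay nearer to the control libraries than fusion replicate 2 did. Mcm10, which binds the helicase and helps polymerase alpha onto DNA, had 1.81 and 0.199 TPM in the fusion libraries, against 3.69 and 6.03 TPM in the control libraries, and passed narrowly (change -1.65 ± 0.55, adjusted p = 0.0498, limma), though not without fusion replicate 2. Cdc45, Gins2 and Gins4 stayed lower after median ratio scaling and after the GC content and length correction.

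The polymerase and primase genes split. Of 7, 4 were lower, Pola1 was higher, and Pola2 and Pole did not pass, where 51.3% of all tested genes were lower and 4.95% higher. Pola1 (ENSMUSG00000006678.6), the catalytic subunit of polymerase alpha, had 25.1 and 19.7 TPM in the fusion libraries, against 8.02 and 6.56 TPM in the control libraries. Both fusion libraries were above both control libraries, with a ratio of means of 3.07 and a change of 1.49 ± 0.39 (SE, adjusted p = 0.0256, limma). The primase subunits that work in the same complex moved the other way. Prim1, the catalytic subunit of primase, had 9.61 and 6.03 TPM in the fusion libraries, against 124 and 111 TPM in the control libraries (change -3.78 ± 0.39, adjusted p = 0.00371, limma). Prim2, its partner, had 5.76 and 6.57 TPM in the fusion libraries, against 72.3 and 55.9 TPM in the control libraries (change -3.17 ± 0.37, adjusted p = 0.00385, limma). Both stayed lower on all 3 scales and Pola1 stayed higher, at 3.00 after median ratio scaling and 2.65 after the GC content and length correction. Pola2, the regulatory subunit of polymerase alpha, had 22.1 and 12.4 TPM in the fusion libraries, against 17.6 and 24.1 TPM in the control libraries. The groups overlapped (change -0.30 ± 0.45, adjusted p = 0.596, limma), and after scaling both fusion libraries were above both control libraries with a change of 1.29 that did not pass. Pola1 made up 40.1% and 44.1% of the summed TPM of these 4 genes in the fusion libraries, against 3.62% and 3.32% in the control libraries. Prim1 made up 15.4% and 13.5% in the fusion libraries, against 55.8% and 56.2% in the control libraries. Such shares do not depend on the scaling of a library, and they were chosen after the values were seen. Pola1 lies on the X chromosome (GRCm38, 93304767 to 93632155), where 443 tested genes had a median change of -1.42, with 18 higher and 240 lower. After median ratio scaling 57 of the 443 were higher and 91 lower. Of all tested genes 4.95% were higher and 51.3% lower on the deposited scale, and 13.6% and 19.9% after scaling.

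Among the polymerases that extend the primers, Pold2, an accessory subunit of polymerase delta, had 10.1 and 6.42 TPM in the fusion libraries, against 62.7 and 92.7 TPM in the control libraries. It was lower (change -3.09 ± 0.42, adjusted p = 0.00482, limma) with the groups well apart. Pold1, the catalytic subunit of polymerase delta, had 1.59 and 0 TPM in the fusion libraries, against 6.01 and 6.90 TPM in the control libraries (change -2.21 ± 0.56, adjusted p = 0.0228, limma). Neither passed after median ratio scaling. Pole, the catalytic subunit of polymerase epsilon on the leading strand, had 0.105 and 9.37 TPM in the fusion libraries, against 9.20 and 9.69 TPM in the control libraries. Fusion replicate 2 was within the control range and fusion replicate 1 close to 0, and the change of -1.63 ± 1.08 did not pass (adjusted p = 0.245, limma).

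Of the sliding clamp and its loader, 5 of 6 genes were lower, with a median change of -2.05. Pcna, the clamp itself, was the most abundant of the 48 genes in the control libraries, with 77.6 and 111 TPM in the fusion libraries, against 295 and 386 TPM in the control libraries. Its change was -1.85 ± 0.37 (SE, adjusted p = 0.0115, limma) on the deposited scale and -0.18 after median ratio scaling, where it did not pass. The 5 subunits of replication factor C, which opens the clamp and closes it around DNA, did not move as a block. Rfc2 had 19.5 and 13.2 TPM in the fusion libraries, against 207 and 233 TPM in the control libraries. This was the largest change of the loader (-3.70 ± 0.36, adjusted p = 0.00371, limma) and it stayed lower on all 3 scales. Rfc3, with 2 promoter matches above, had 12.5 and 43.0 TPM in the fusion libraries, against 101 and 116 TPM in the control libraries (change -2.16 ± 0.62, adjusted p = 0.0329, limma). Rfc5 had 7.13 and 5.63 TPM in the fusion libraries, against 35.0 and 28.4 TPM in the control libraries (change -2.15 ± 0.39, adjusted p = 0.00872, limma). For Rfc3 the fusion libraries lay far apart, and for Rfc5 close together. Rfc1, the large subunit, had 2.22 and 6.32 TPM in the fusion libraries, against 16.9 and 18.8 TPM in the control libraries (change -1.96 ± 0.54, adjusted p = 0.0292, limma). Rfc4 had 32.5 and 70.7 TPM in the fusion libraries, against 114 and 112 TPM in the control libraries. It did not pass (change -1.22 ± 0.46, adjusted p = 0.0728, limma) and changed by 0.43 after median ratio scaling. Rfc4 shares exonic bases on the opposite strand with Eif4a2, which had 64.7 and 58.9 TPM in the fusion libraries, against 168 and 180.4 TPM in the control libraries.

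The genes for binding single strands and for joining Okazaki fragments held 4 that were lower and 1 that was higher, with a median change of -3.92. Replication protein A is a trimer of the products of Rpa1, Rpa2 and Rpa3. Rpa1, the large DNA-binding subunit, had 1.94 and 3.12 TPM in the fusion libraries, against 49.6 and 81.1 TPM in the control libraries. Rpa2, the subunit that damage kinases phosphorylate, had 3.88 and 6.59 TPM in the fusion libraries, against 87.5 and 94.9 TPM in the control libraries. Both were lower in both fusion libraries, by -4.21 ± 0.45 (SE, adjusted p = 0.00383) and -3.92 ± 0.40 (SE, adjusted p = 0.00371, limma). Rpa3 (ENSMUSG00000012483.4), the small subunit, had 441 and 416 TPM in the fusion libraries, against 108 and 116 TPM in the control libraries. It was higher in both fusion libraries, with a ratio of means of 3.81 and a change of 1.92 ± 0.32 (SE, adjusted p = 0.00695, limma). Rpa3 made up 98.7% and 97.7% of the summed TPM of the trimer's genes in the fusion libraries, against 44.2% and 39.7% in the control libraries. The Rpa3 row stands on the minus strand of chromosome 6 (GRCm38, 8255936 to 8259173), and its longest annotated transcript has 682 bases and a GC content of 34.2%. The 1342 tested genes whose longest transcript is under 1000 bases had a median change of -0.33, with 195 higher and 399 lower. For the 4882 genes of 2000 to 4000 bases the median was -1.71, with 184 higher and 2894 lower. Of all tested genes 4.95% were higher and 51.3% lower. After the correction for GC content and length the change of Rpa3 was 1.31, against 3.59 after median ratio scaling, and it passed under both.

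Fen1, the flap endonuclease that trims Okazaki fragments, had 0.274 and 0 TPM in the fusion libraries, against 23.9 and 36.7 TPM in the control libraries. It was at or near 0 in both fusion libraries (change -4.76 ± 0.46, adjusted p = 0.00371, limma). On the opposite strand it shares exonic bases with Tmem258, which had 2454 and 1479.6 TPM in the fusion libraries, against 610.1 and 582 TPM in the control libraries, higher in both fusion libraries where Fen1 was lower. Lig1, the ligase that seals the fragments, had 2.06 and 5.50 TPM in the fusion libraries, against 38.8 and 43.4 TPM in the control libraries (change -3.24 ± 0.50, adjusted p = 0.00617, limma). Rpa1, Rpa2, Fen1 and Lig1 were lower on all 3 scales.

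**Figure D3:**
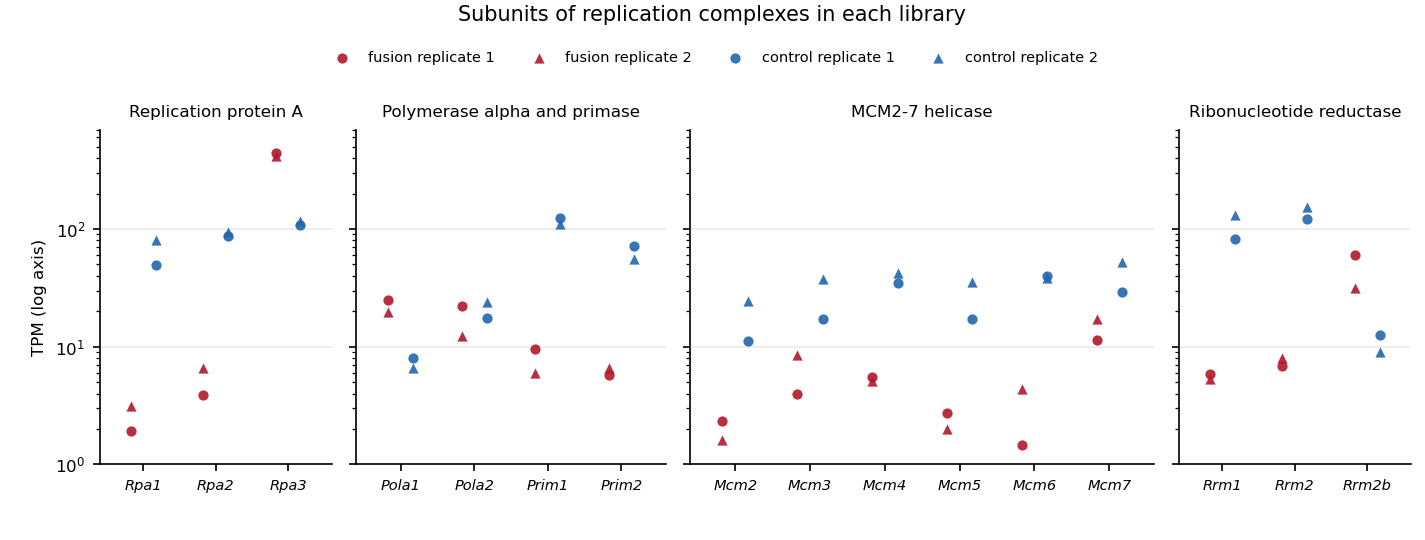
TPM (log axis) of the subunits of replication protein A, polymerase alpha and primase, the MCM2-7 helicase, and ribonucleotide reductase, in each fusion (red, left) and control (blue, right) library, with circles for replicate 1 and triangles for replicate 2. Rpa3, Pola1 and Rrm2b are higher in both fusion libraries while their partners Rpa1, Rpa2, Prim1, Prim2, Rrm1 and Rrm2 are lower, under median ratio scaling too. Pola2, another partner of Pola1, is not lower: its groups overlap here, and after the scaling both fusion libraries are above both control libraries.

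The deoxynucleotide supply genes split into 3 that were lower and 2 that did not pass, where 51.3% of all tested genes were lower. Ribonucleotide reductase makes deoxynucleotides, and its S phase form pairs the large subunit, from Rrm1, with the small subunit from Rrm2. Rrm1 had 5.86 and 5.34 TPM in the fusion libraries, against 82.8 and 132 TPM in the control libraries (change -4.00 ± 0.40, adjusted p = 0.00371, limma). Rrm2 had 6.80 and 8.08 TPM in the fusion libraries, against 122 and 154 TPM in the control libraries (change -4.04 ± 0.36, adjusted p = 0.00367, limma). Rrm2b, the p53-inducible small subunit that also works outside S phase, is in the list of other nucleotide synthesis genes. It had 60.4 and 31.5 TPM in the fusion libraries, against 12.5 and 8.95 TPM in the control libraries, which passed as higher (change 1.95 ± 0.47, adjusted p = 0.0196, limma). Rrm2b made up 89.9% and 79.6% of the TPM of both small subunits in the fusion libraries, against 9.32% and 5.48% in the control libraries. Tk1, the thymidine kinase of dividing cells, had 0.0822 and 2.05 TPM in the fusion libraries, against 53.9 and 65.6 TPM in the control libraries, a fall that was the largest of the 46 genes on this scale but smaller than that of Fen1 with a pseudocount of 0.1 (-6.57 for Tk1 and -7.26 for Fen1; change -5.06 ± 0.61, adjusted p = 0.00396, limma). Its mitochondrial counterpart Tk2 had 0.281 and 2.28 TPM in the fusion libraries, against 8.40 and 7.83 TPM in the control libraries (change -2.15 ± 0.58, adjusted p = 0.0266, limma), and made up 77.3% and 52.6% of the TPM of the pair in the fusion libraries, against 13.5% and 10.7% in the control libraries. Tyms, the thymidylate synthase, had 16.2 and 81.0 TPM in the fusion libraries, against 128 and 130.2 TPM in the control libraries. Dut, the dUTPase that keeps uracil out of DNA, had 13.7 and 42.1 TPM in the fusion libraries, against 69.1 and 46.3 TPM in the control libraries. In both genes fusion replicate 2 lay much nearer to the control libraries than fusion replicate 1, and neither passed (changes -1.79 ± 0.77, adjusted p = 0.0974, and -1.19 ± 0.61, adjusted p = 0.147, limma). Dut changed by 0.43 after median ratio scaling and 0.77 after the GC content and length correction. Rrm1, Rrm2 and Tk1 were lower on all 3 scales.

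**Figure D4:**
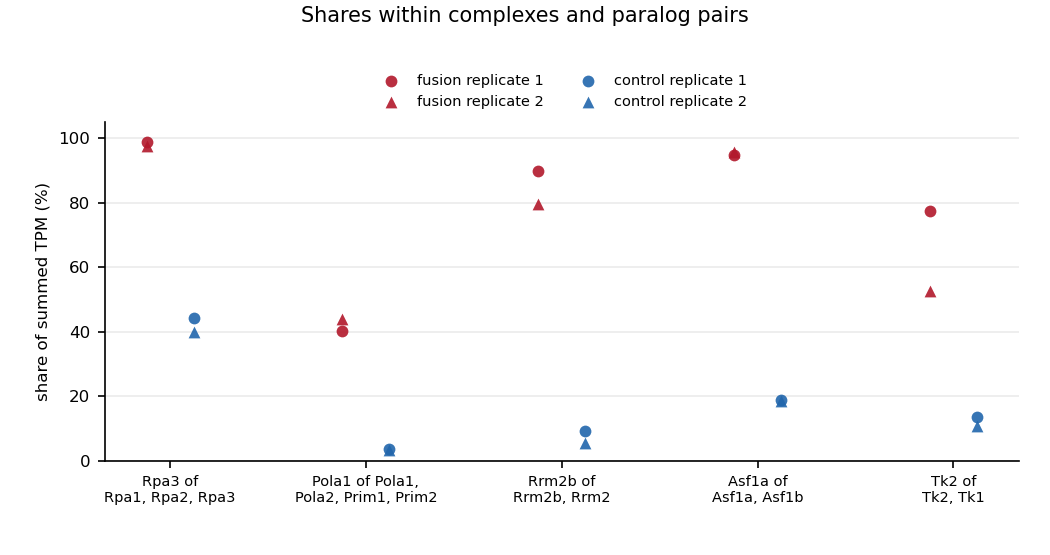
Share of the first gene in the summed TPM of its complex or paralog pair (y axis, percent), in each fusion (red, left) and control (blue, right) library. Rpa3 holds 98.7% and 97.7% in the fusion libraries and 44.2% and 39.7% in the control libraries, and in all 5 sets shown, which were chosen after the values were seen, both fusion libraries are above both control libraries.

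For chromatin assembly behind the fork and histone mRNA, all 3 tested genes of 4 were lower. Asf1b, a histone chaperone of dividing cells, had 1.11 and 2.25 TPM in the fusion libraries, against 53.5 and 58.4 TPM in the control libraries (change -4.44 ± 0.43, adjusted p = 0.00371, limma). Its paralog Asf1a had 20.5 and 51.7 TPM in the fusion libraries, against 12.5 and 13.3 TPM in the control libraries, and did not pass (change 1.28 ± 0.53, adjusted p = 0.0916, limma), although it was higher after median ratio scaling, at 2.85, and after the GC content and length correction, at 1.89. Asf1a made up 94.9% and 95.8% of the TPM of the pair in the fusion libraries, against 18.9% and 18.6% in the control libraries. Chaf1b, the middle subunit of chromatin assembly factor 1, had 1.32 and 2.02 TPM in the fusion libraries, against 25.5 and 28.8 TPM in the control libraries (change -3.41 ± 0.42, adjusted p = 0.00406, limma). Chaf1a, the large subunit, was too low to be tested, with 0 and 0.130 TPM in the fusion libraries, against 0.565 and 1.13 TPM in the control libraries. Slbp, which binds the stem-loop of replication-dependent histone mRNAs, had 25.7 and 39.3 TPM in the fusion libraries, against 135 and 139.8 TPM in the control libraries (change -2.08 ± 0.37, adjusted p = 0.00838, limma). Slbp did not pass after median ratio scaling, at -0.43, while Asf1b and Chaf1b did.

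Of the 3 genes of S phase entry 1 was lower, 1 did not pass and 1 was not tested, where 51.3% of all tested genes were lower. Ccne1, which encodes cyclin E1, the partner of Cdk2 at the start of S phase, had 0 and 0.0703 TPM in the fusion libraries, against 2.98 and 5.77 TPM in the control libraries (change -2.33 ± 0.37, adjusted p = 0.00645, limma). It was lower after median ratio scaling and not after the GC content and length correction, at -0.18. Ccne2, for cyclin E2, had 4.40 and 11.1 TPM in the fusion libraries, against 19.6 and 22.7 TPM in the control libraries. It did not pass (change -1.45 ± 0.52, adjusted p = 0.0626, limma) and changed by 0.08 after scaling. Ccne1 was 0% and 0.627% of the pair in the fusion libraries, against 13.2% and 20.3% in the control libraries. E2f1, the E2F factor best known for driving S phase genes, was not tested, with 0.00714 and 0.0113 TPM in the fusion libraries, against 0.121 and 0.414 TPM in the control libraries. Brca1, which protects stalled forks and repairs breaks by recombination, had 2.71 and 2.21 TPM in the fusion libraries, against 5.10 and 7.48 TPM in the control libraries. The groups were apart, but the change of -1.06 ± 0.44 did not pass (adjusted p = 0.0885, limma) and was 0.28 after median ratio scaling and 0.12 after the GC content and length correction.

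Summed over all 48 genes, the libraries held 852 and 1088 TPM in the fusion group, against 2615 and 3049 TPM in the control group. Without Pola1 and Rpa3 the sums were 386 and 653 TPM in the fusion libraries, against 2499 and 2926 TPM in the control libraries. At 1 TPM or more there were 38 and 39 of the 48 genes in the fusion libraries, against 46 and 47 in the control libraries. The clamp and loader genes summed to 151 and 249.9 TPM in the fusion libraries, against 769 and 894 TPM in the control libraries, and the deoxynucleotide supply genes to 42.6 and 138 TPM, against 455 and 528 TPM. In both sums fusion replicate 2 was the higher fusion library, as it was in the MCM2-7 sum of 27.4 and 38.9 TPM in the fusion libraries, against 149.6 and 231 TPM in the control libraries.

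Across the 46 tested genes the change had a Pearson correlation of -0.41 with the GC content of the longest transcript (Spearman -0.32), and of -0.17 across all 12862 tested genes with an annotated transcript. It was -0.11 with log length and -0.28 with the control level. These are descriptions across genes, which share libraries and are not independent replicates. Exonic bases on the opposite strand are shared with a protein-coding gene also by Orc6 (Vps35), Ccne2 (Ints8), Rfc2 (Lat2), Rfc5 (Wsb2), Gins2 (Gse1), Lig1 (Zswim9), Tk1 (Afmid) and Chaf1a (Ubxn6).

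The other genes of the pathway were read as lists of related genes. Of the 123 tested, mitosis genes below included, 14 reached 1 TPM in the control libraries only, as did 18.6% of all tested genes. Dscc1, Shmt1 and Aurka were among these 14. Of 33 tested other replication factors 19 were lower and none higher by limma (none higher at an unadjusted p under 0.05 either), with a median change of -1.84, where 51.3% of all tested genes were lower. After median ratio scaling 7 of the 33 were lower and 3 higher, where 19.9% and 13.6% of all tested genes were. After the GC content and length correction 6 were lower and 2 higher, where 16.5% and 13.7% were. Rnaseh2a, the catalytic subunit of the nuclease that removes RNA from DNA, had 0.0294 and 1.39 TPM in the fusion libraries, against 75.1 and 108 TPM in the control libraries (change -5.86 ± 0.56, adjusted p = 0.00371, limma). Dscc1, part of an alternative clamp loader, had 0 and 0.254 TPM in the fusion libraries, against 17.4 and 21.2 TPM in the control libraries. Cdc7, the kinase that fires loaded origins, had 0.784 and 1.89 TPM in the fusion libraries, against 17.9 and 28.8 TPM in the control libraries. All 3 were lower on the deposited scale, after median ratio scaling and after the GC content and length correction (changes -4.17 ± 0.42 and -3.39 ± 0.50 for Dscc1 and Cdc7, adjusted p = 0.00371 and 0.00563, limma). Of 20 other nucleotide synthesis genes 18 were lower and Rrm2b higher, with a median of -2.20, where 51.3% of all tested genes were lower and 4.95% higher. These counts were 5 lower and 1 higher after median ratio scaling, where 19.9% and 13.6% of all tested genes were. They were 4 lower and 1 higher after the GC content and length correction, where 16.5% and 13.7% were. Umps, for pyrimidine synthesis, had 0.165 and 1.41 TPM in the fusion libraries, against 26.0 and 28.3 TPM in the control libraries (change -4.07 ± 0.52, adjusted p = 0.00428, limma). Shmt1, of folate metabolism, had 0.678 and 0.0239 TPM in the fusion libraries, against 16.9 and 23.8 TPM in the control libraries (change -4.01 ± 0.49, adjusted p = 0.00396, limma). Impdh2, of guanine nucleotide synthesis, had 6.66 and 7.74 TPM in the fusion libraries, against 82.8 and 118 TPM in the control libraries (change -3.61 ± 0.38, adjusted p = 0.00375, limma). All 3 stayed lower after median ratio scaling and after the GC content and length correction.

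Of 11 chromatin replication and maintenance genes 6 were lower and none higher, also at an unadjusted p under 0.05, with a median of -1.77, where 51.3% of all tested genes were lower. Under each of median ratio scaling and the GC content and length correction 1 of the 11 was lower and 1, Asf1a, was higher. Of all tested genes 19.9% were lower and 13.6% higher after the scaling, and 16.5% and 13.7% after the correction. Rbbp7, a histone-binding subunit of several chromatin complexes, had 15.9 and 33.2 TPM in the fusion libraries, against 295 and 269 TPM in the control libraries (change -3.56 ± 0.45, adjusted p = 0.00416, limma). Supt16 and Ssrp1, which form the histone chaperone FACT, were lower by -2.99 ± 0.49 and -2.85 ± 0.39 (SE, adjusted p = 0.00686 and 0.00491, limma) and did not pass after median ratio scaling. Of 19 tested regulators around E2F, RB and the S phase kinases 9 were lower and none higher by limma (1 higher at an unadjusted p under 0.05), where 51.3% of all tested genes were lower. Their median was -1.42, against -1.41 for all tested genes. Fbxo5, an inhibitor of the anaphase-promoting complex, Cdk2, the kinase that cyclin E activates, and Skp2, which targets p27 for destruction, were lower by -2.80 ± 0.40, -2.56 ± 0.42 and -2.53 ± 0.52 (SE, adjusted p = 0.00532, 0.00704 and 0.0124, limma). After median ratio scaling none of the 19 was lower by limma (2 at an unadjusted p under 0.05) and 2 were higher, Rb1 and E2f5, which were named after their values were seen. On that scale 19.9% of all tested genes were lower and 13.6% higher. Rb1, the retinoblastoma gene that holds E2F back, had 21.7 and 19.3 TPM in the fusion libraries, against 10.7 and 5.23 TPM in the control libraries, a change of 1.33 ± 0.47 that did not pass on the deposited scale (adjusted p = 0.0597, limma) and was 2.83 after scaling. Of 18 tested replication stress and recombination genes 8 were lower and none higher, also at an unadjusted p under 0.05, with a median of -1.52, where 51.3% of all tested genes were lower. After median ratio scaling 2 of the 18 were lower and 2 higher, where 19.9% and 13.6% of all tested genes were. After the GC content and length correction 2 were lower and 3 higher, where 16.5% and 13.7% were.

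Mitosis genes, set beside the replication genes as the next step of the cycle, were lower in all 22 cases, with a median change of -2.96. Of all tested genes 51.3% were lower, with a median change of -1.41. Aurka, a kinase of the spindle poles, had 0.207 and 0 TPM in the fusion libraries, against 76.2 and 85.4 TPM in the control libraries (change -6.22 ± 0.41, adjusted p = 0.00367, limma). Cdc20, an activator of the anaphase-promoting complex, had 1.58 and 3.34 TPM in the fusion libraries, against 88.6 and 114 TPM in the control libraries (change -4.93 ± 0.44, adjusted p = 0.00367, limma). Ccnb1, for cyclin B1, had 22.3 and 8.89 TPM in the fusion libraries, against 305 and 333 TPM in the control libraries (change -4.40 ± 0.50, adjusted p = 0.00384, limma). After median ratio scaling 9 of the 22 were lower, and 11 after the GC content and length correction, with no mitosis gene higher under either, also at an unadjusted p under 0.05. Lower calls made up 19.9% and 16.5% of all tested genes on these scales. The replication genes summed to 2.95 and 3.46 times the mitosis genes in the fusion libraries, against 1.28 and 1.33 times in the control libraries. Without Rpa3 the ratios were 1.43 and 2.14 in the fusion libraries, against 1.23 and 1.28 in the control libraries, with both fusion libraries still above both control libraries. The promoter letters searched above were present in 1 of 19 mitosis genes (5.26%), 1 of 18 other nucleotide synthesis genes (5.56%), 3 of 13 replication stress and recombination genes (23.1%), 10 of 29 other replication factors (34.5%), 7 of 16 regulators around E2F and RB (43.8%) and 5 of 11 chromatin replication and maintenance genes (45.5%).

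**Figure D5:**
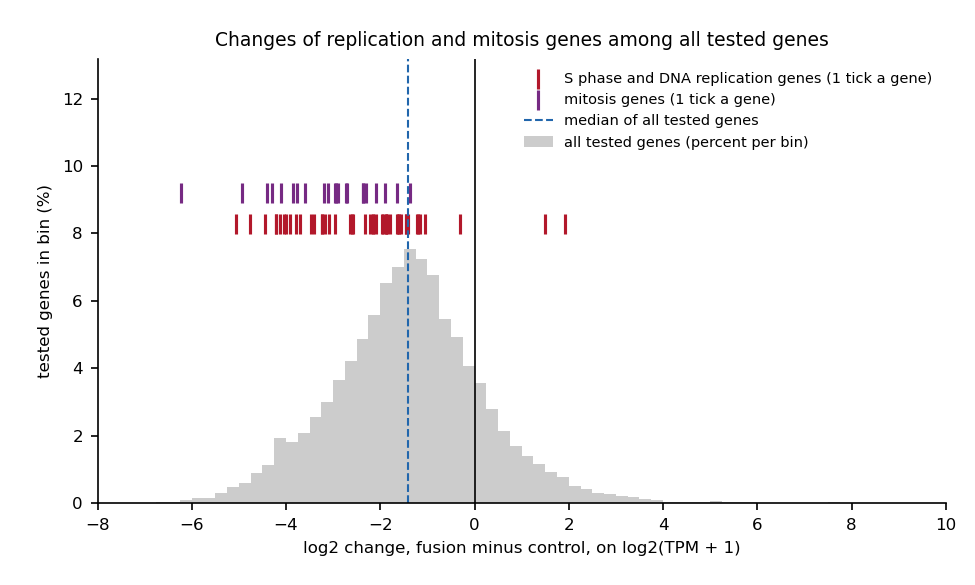
Distribution of log2 changes (fusion minus control, log2(TPM + 1)) over all 12871 tested genes, as the percent of genes in each bin (grey), with a tick for each replication gene (red) and each mitosis gene (purple). The dashed line is the median of all tested genes at -1.41; the median of the replication genes is -2.18 and that of the mitosis genes -2.96, and after median ratio scaling these are -0.22, -1.01 and -1.46.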

How the data were processed

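The authors deposited 1 table of TPM for 54348 genes in 4 libraries (2 fusion, 2 control). Per the labels' protocols, forebrains were digested with papain for 30 min, live tdTomato-positive cells were sorted, full-length cDNA was amplified and 100 bp paired-end reads were made on an MGISEQ-2000. Per the submitters' processing notes, Trimmomatic 0.39 and Salmon 1.8.0 were used, with the builds GRCm38 and mm10. No source used here gives the annotation release. TPM keeps no depth, so counting precision is unknown.

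Genes at 1 TPM or more in at least 2 libraries entered a limma fit (version 3.58.1, R 4.3.3, eBayes with a trend, 2-sided, Benjamini-Hochberg over all tested genes, threshold 0.05) on log2(TPM + 1), without a replicate block. The fit was first tested on simulated data. Lengths, GC content and positions came from GENCODE M21 (GRCm38), and promoters from RefSeq (GRCm38.p6), with no protein sequences used here. Of the tested genes 12862 had a length. Alternatives were other pseudocounts (0.1, 5) and filters (none, a mean of 5 TPM), median ratio scaling, TPM renormalized without mitochondrial and ribosomal protein genes, a GC content and length correction (loess, span 0.3), no trend, a replicate block, and each library left out. Values were given first for genes with a mean of at least 5 TPM and the 4 largest changes of a role, for genes that did not pass or were higher, and for up to 3 lower genes of each related list. Some genes that this rule names are left out of the text. The members and lists were chosen with earlier results of these data known, and shares within complexes after the values were seen. Pcna-ps1, Pcna-ps2 and Tyms-ps had at most 0.437 TPM in any library.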

Additional observations from a re-analysis of the deposited data

How the results depend on the processing

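Of the 36 replication genes past the threshold, 18 (16 lower, 2 higher) were called the same way in all 11 alternatives other than leaving out a control library. Without 1 library, members lower numbered 2 to 40 and members higher 0 to 2, all tested genes lower 1025 to 7987 and higher 14 to 1084, related genes called 1 to 99, and the members' median change was -2.53 to -2.06. The lone library of a group is then assumed to vary like the other group's libraries. On that assumption Cdt1 (-2.24), Gmnn (-1.73), Pole (-3.24), Rfc4 (-1.77), Tyms (-2.92), Dut (-1.97) and Ccne2 (-2.03) passed as lower without fusion replicate 2, and Gins3 (-2.97), Rfc4 (-0.67) and Tyms (-0.66) without fusion replicate 1. None of these passed in the main comparison. Cdt1, Ccne2, Tyms and Gins3 also passed as lower in at least 1 alternative that kept all 4 libraries. Median ratio scaling gave 18 members lower, 33 related genes called, 2563 of all genes lower and 1746 higher, and a median of -1.01. The GC content and length correction gave 16 members lower, 34 related genes called, 2117 of all genes lower and 1766 higher, and a median of -0.83. Renormalized without mitochondrial and ribosomal protein genes, 1030 genes were higher and the median was -1.80. With no filter 353 genes were higher and 51 related genes were called, against 637 and 83 in the main comparison. With a mean of at least 5 TPM 405 were higher and the median was -2.59, and with pseudocounts of 0.1 and 5 it was -2.93 and -1.67. The cause was not tested. Changes turned sign after median ratio scaling for Orc6 (0.04), Gmnn (0.49), Mcm7 (0.18), Pola2 (1.29), Rfc4 (0.43), Dut (0.43), Ccne2 (0.08) and Brca1 (0.28), and after the GC content and length correction for Orc1 (0.24), Cdt1 (0.31), Mcm7 (0.52), Pola2 (1.43), Dut (0.77) and Brca1 (0.12). Pola2 also turned when renormalized (0.31) and without fusion replicate 2, with a range of -0.69 to 0.09 over the left-out libraries. None of these passed. The labels do not say whether the replicate numbers pair the libraries. The deviations of those numbered 1 had a correlation of -0.04 across genes, which cannot show whether libraries of the same number were prepared together. A replicate block gave 38 members lower and 2 higher, 86 related genes called, 6978 of all genes lower and 642 higher. Unknown depth limits what can be said of genes near 0, such as Fen1, Orc1, Ccne1, Chaf1a and E2f1.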
